A study of Mus musculus with 6 samples.

Results

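The miR-30 family was examined in small RNA libraries from epididymal white adipose tissue (WAT) of male mice. Its members were taken by name from the deposited table, as every arm listed for miR-30a to miR-30e, so that the rule itself uses no measured value, although earlier results of these data were known when the family was chosen. The table held 11 such rows among 1983, and the 10 described were kept for being above the lowest value the table allows in at least 3 libraries, which they were in all 6. These were 5 rows of the 5p arm (miR-30a-5p, miR-30b-5p, miR-30c-5p, miR-30d-5p and miR-30e-5p) and 5 rows of the 3p arm (miR-30a-3p, miR-30c-1-3p, miR-30c-2-3p, miR-30d-3p and miR-30e-3p). The remaining row, miR-30b-3p, was at that lowest value throughout.

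The 6 libraries came from 3 wild type (Wt) mice and 3 mice that overexpress angiotensinogen (Agt Tg), the precursor of angiotensin II. All were male C57BL6/J mice, and no source used here gives their ages. The transgene, carried by the Agt Tg group alone, is driven by the aP2 promoter, which is active mainly in adipocytes and also in macrophages. The labels give a chow diet for both groups, whereas the methods of the study describe a low fat diet. Each library was taken as 1 mouse. The labels do not state that each came from a separate animal, so p values measure the spread between these libraries. Whole tissue was used, with its vessels, blood and immune cells. Agt itself is an mRNA and was not measured in these libraries.

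A miRNA hairpin yields a 5p and a 3p strand, of which usually one, the guide, is kept by an Argonaute protein and pairs with mRNAs through its seed, bases 2 to 8. In the miR-30 family the 5p strands are the usual guides. The family is known for acting on the fate of mesenchymal precursors, where it favours fat over bone by acting on Runx2, a transcription factor of bone formation. It has also been linked to thermogenic fat through Nrip1, a corepressor of oxidative genes, and to epithelial identity through Snai1, a repressor of epithelial genes.

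The sequences are shown because the shared seed is what joins the family and because a few bases are all that part its members in sequencing. A mouse sequence was matched to 7 of the 11 rows from a table of RefSeq sequences (GRCm38.p6). The rows not matched were miR-30b-5p, miR-30b-3p, miR-30d-5p and miR-30d-3p. Capitals mark the seed.
miR-30a-5p: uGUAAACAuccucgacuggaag
miR-30e-5p: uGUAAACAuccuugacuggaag
miR-30c-5p: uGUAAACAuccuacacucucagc
miR-30a-3p: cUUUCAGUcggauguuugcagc
miR-30e-3p: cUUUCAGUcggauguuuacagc
miR-30c-1-3p: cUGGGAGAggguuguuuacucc
miR-30c-2-3p: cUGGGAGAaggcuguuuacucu

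The 3 guide sequences shared the seed GUAAACA, which 4 of the 1679 mouse mature miRNA names in that table carried (0.238%), the other being miR-384-5p. The matched 3p strands fell into other seed groups. Within the table UUUCAGU was held by miR-30a-3p and miR-30e-3p, and UGGGAGA by miR-30c-1-3p, miR-30c-2-3p and miR-6958-5p. These seed counts leave out the miR-30b and miR-30d strands, for which that table gave no sequence. Counted from 1 at the 5′ end and with miR-30a first, miR-30a-5p and miR-30e-5p differed at 1 of 22 bases, C13U, and miR-30a-3p and miR-30e-3p at 1 of 22 bases, G18A. miR-30c-5p differed from miR-30a-5p at 5 of the first 22 bases, all between positions 13 and 20. With miR-30c-1-3p first, miR-30c-2-3p differed from it by G9A, U12C and C22U. Each of the 3 guides began with U, like 40.9% of all mouse mature names, and each of the 4 3p strands with C, like 20.7%. The rows carry human names and the mouse reads were counted under them. How many mismatches the mapping allowed is not stated in any source used here, and sharing of reads between rows that differ by 1 base was not tested.

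The hairpins lie in 3 pairs in the mouse genome (GRCm38.p6). Mir30a (chromosome 1, 23272269 to 23272339, plus strand) overlaps no other annotated gene, and Mir30c-2 (23291701 to 23291784, plus strand) lies 19361 bases further on, in an exon of the lincRNA Gm27028. Mir30c-1 (chromosome 4, 120769534 to 120769622, minus strand) and Mir30e (120772606 to 120772697, minus strand) are 2983 bases apart. Both lie in introns of Nfyc, which encodes a subunit of the NF-Y transcription factor, on the same strand. Mir30f is annotated on the opposite strand over the same bases as Mir30e. Mir30b (chromosome 15, 68337415 to 68337510, minus strand) and Mir30d (68341208 to 68341289, minus strand) are 3697 bases apart, and Mir30d overlaps an exon of the lincRNA Gm20732. Mature miR-30c-5p is the same in Mir30c-1 and Mir30c-2, so its row cannot be split between these loci, whereas their 3p strands tell them apart.

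The match to the shared seed, TGTTTAC on the mRNA strand, was searched in the longest annotated 3′ UTR of genes known or proposed as targets of the family. It was found 3 times in Runx2, 2 times in Nrip1, 1 time in Snai1 and 0 times in Ccn2, which encodes a matrix protein. One site of each gene with a match is shown, with the match in capitals; the Runx2 and Snai1 sites are followed by an A.
Runx2, chr17:44604431-44604437, minus strand: gtttacttcaTGTTTACaaataattgt
Nrip1, chr16:76290964-76290970, minus strand: cgaggttggtTGTTTACtatttctgta
Snai1, chr2:167542713-167542719, plus strand: gggagaaagaTGTTTACattttaaagg
The same letters were present in the longest 3′ UTR of 13.8% of 21022 genes. Among genes with a 3′ UTR within 10% of the length of that gene, the share was 35.4% for Runx2 (3904 bases), 33.1% for Nrip1 (3782 bases), 8.07% for Snai1 (731 bases) and 16.7% for Ccn2 (1608 bases). These are matches of letters, and no mRNA was measured in these libraries.

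The library totals lay between 6387766 and 10562634 reads, and each library had between 305 and 335 rows above the lowest value. That value, 10 reads per 10000000 and called the floor here, stood for 6.39 to 10.6 reads. Wt replicate 2 stood apart from the other libraries in miRNAs of epithelium. The summed level of 12 listed epithelial miRNAs was 14278 reads per 1000000 of the library total (RPM) there, against 135 to 203 in the other Wt and 126 to 206.4 in the Agt Tg libraries. Of the 12, 6 were above the floor in all libraries and 1, miR-429, in none. Summed blood miRNAs (6 of 6 in all libraries) ran from 7678 to 20306 in Wt and from 11311 to 22778 in Agt Tg. The sum was lowest in Wt replicate 2, but it was mostly miR-486-5p, at 4794 RPM there and 8774 to 20183 elsewhere. miR-451a and miR-144-3p were also lowest in Wt replicate 2. In contrast, miR-142-3p was highest there (79.3 RPM), and miR-150-5p (2459) and miR-223-3p (82.2) lay within the range of the other libraries. Summed adipocyte miRNAs (5 of 5 in all libraries) ran from 52372 to 56712 in Wt and from 54984 to 75076 in Agt Tg. This sum was mostly miR-143-3p, at 36918 to 56877 RPM, so it says little about the other listed adipocyte miRNAs. In Wt replicate 2 miR-378a-3p was at its lowest (3866 RPM, 4395 to 6555 elsewhere) and miR-107 at its highest (120). There miR-143-3p, miR-103a-3p and miR-148a-3p lay within the range of the other libraries. Of 3 skeletal muscle miRNAs, 1, miR-133a, was above the floor in all libraries, miR-1 was above it in Wt replicate 2 only and miR-206 in none. The summed level was 170 in Wt replicate 2 and 48.5 to 65.1 elsewhere. The liver miRNA, miR-122-5p, was between 7.49 and 14.5. The part of these libraries' makeup in the results below was not tested, and values without Wt replicate 2 are given beside the genotype comparisons.

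miR-30 was an abundant family in this tissue. Its 10 rows took 2.61% ± 0.262 of the library total in Wt and 2.29% ± 0.225 in Agt Tg (SD, n = 3). As a share of reads on listed miRNAs this was 4.70% ± 0.467 and 4.29% ± 0.385. The individual shares of the total were 2.76%, 2.31% and 2.76% in Wt replicates 1, 2 and 3, and 2.05%, 2.30% and 2.503% in Agt Tg replicates 1, 2 and 3. The groups overlapped. The 95% Wilson interval of a single library's share reached at most 0.0117 points to either side, which covers counting error only. The 5p rows held between 94.6% and 96.5% of the family's reads.

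**Figure D1:**
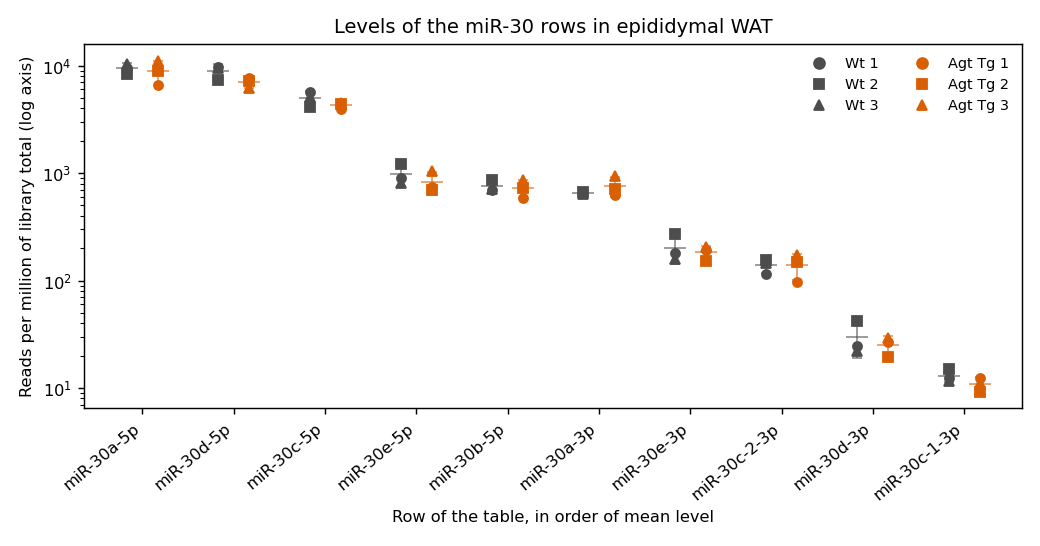
RPM (reads per 1000000 of the library total) (log axis) for each of the 10 miR-30 rows, in order of mean level, with 1 point per library, a dash at the group mean and bars of 1 SD (n = 3). The 5p rows of miR-30a, miR-30d and miR-30c lie at 3992 or above in all libraries, and the row of miR-30c-1-3p lies lowest, between 9.24 and 15.1.

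The guides formed 2 tiers. The upper tier held miR-30a-5p, miR-30d-5p and miR-30c-5p, at ranks 14, 16 and 24 by mean log2 level among the 329 rows tested. miR-30a-5p had 9523, 8444 and 10450 RPM in Wt replicates 1, 2 and 3, and 6592, 8968 and 11115 in Agt Tg replicates 1, 2 and 3. Agt Tg replicates 1 and 3 were its lowest and highest libraries, so the Wt values lay inside the range of the Agt Tg values. miR-30d-5p had 9817, 7301 and 9525 RPM in Wt, and 7681, 7134 and 6178 in Agt Tg libraries in the same order. The highest Agt Tg value was above Wt replicate 2 and below the other Wt values. miR-30c-5p had 5657, 4094 and 5144 RPM in Wt, and 3992, 4435 and 4456 in Agt Tg libraries. Its values overlapped in the same way, with Wt replicate 2 among the Agt Tg libraries.

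The lower tier held miR-30e-5p and miR-30b-5p, at ranks 49 and 50. miR-30e-5p had 898, 1211 and 816 RPM in Wt, and 736, 691 and 1057 in Agt Tg libraries. It was highest in Wt replicate 2, the library with the epithelial miRNAs, and next highest in Agt Tg replicate 3. miR-30b-5p had 694, 859 and 715 RPM in Wt, and 582, 726 and 871 in Agt Tg libraries, and its groups overlapped over nearly their whole range. Although Mir30b and Mir30d are neighbours on the same strand, miR-30d-5p was 7.09 to 14.1 times as abundant as miR-30b-5p in the same library. These ratios are of reads, and how well each strand was ligated was not measured.

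The 3p rows ran over a wider range. miR-30a-3p, at rank 53, was as abundant as the lower guides. It had 663, 668 and 640 RPM in Wt, and 628, 718 and 939 in Agt Tg libraries. The Wt libraries lay close together, and Agt Tg replicate 3 alone stood well above them. miR-30e-3p (rank 92) had 179, 270 and 158 RPM in Wt, and 194, 153 and 203.8 in Agt Tg libraries, again highest in Wt replicate 2. miR-30c-2-3p (rank 100) lay between 96.8 and 173, lowest in Agt Tg replicate 1 and highest in Agt Tg replicate 3. The rarest rows were miR-30d-3p (rank 156), between 19.6 and 42.1, and miR-30c-1-3p (rank 188), between 9.24 and 15.1. miR-30c-1-3p rested on 59 to 130 reads per library. Counting alone gave an SD of 0.13 to 0.15 on the log2 scale in the Wt libraries, where the SD between mice was 0.19, and of up to 0.19 in the Agt Tg libraries, where it was 0.22.

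The order of the 10 rows by mean level was the same with each library left out in turn. Neighbours in this order were compared within libraries with an exact two-sided sign-flip permutation test over the 6 libraries, adjusted by Benjamini-Hochberg over the 9 pairs; the smallest p this allows is 0.03125. The order, and so the neighbours compared, came from these same 6 libraries, so the p values are no independent evidence for it. In 6 of the 9 pairs the order held in 6 of 6 libraries (adjusted exact p = 0.0469). The other 3 pairs missed the adjusted threshold. miR-30a-5p was above miR-30d-5p in 4 of 6 libraries (mean log2 difference 0.21 ± 0.37, SD, adjusted exact p = 0.281). miR-30e-5p was above miR-30b-5p in 5 of 6 (0.27 ± 0.19, adjusted exact p = 0.0804), and miR-30b-5p above miR-30a-3p in 4 of 6 (0.06 ± 0.18, adjusted exact p = 0.469).

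The main question was whether the family differs between genotypes. No miR-30 row passed the test. Of the 10 rows, 9 had a negative log2 fold change (Agt Tg minus Wt), against 67.5% of all 329 rows tested, and the median over the 5p rows was -0.20, compared with -0.19 over all 329. The scaling of libraries shifts all rows together, and TMM scaling, which sets libraries to a common level over most miRNAs, is given beside it. Under TMM the median of all rows was -0.06 and 55.3% of them were negative, while of the 10 miR-30 rows 5 were negative and 5 positive, with a median of -0.07 over the 5p rows. TMM scaling adds the same amount to every row, so the place of a row among the others is the same under both.

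By limma on the deposited log2 values, 0 of the 10 rows had an unadjusted p of at most 0.05 and a log2 fold change of 1 or more in size, where 4.86% of all rows tested did. At an unadjusted p under 0.05 there were also 0 of 10, against a background of 9.12%, and at an adjusted p under 0.05 there were 0 of 10, as for all rows (0%). limma-voom likewise gave 0 of 10 at either threshold. In 0 of the 10 rows did the 3 Agt Tg libraries lie to one side of the 3 Wt libraries, as they did for 17.6% of all rows. The adjusted p values ran from 0.541 to 0.965.

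**Figure D2:**
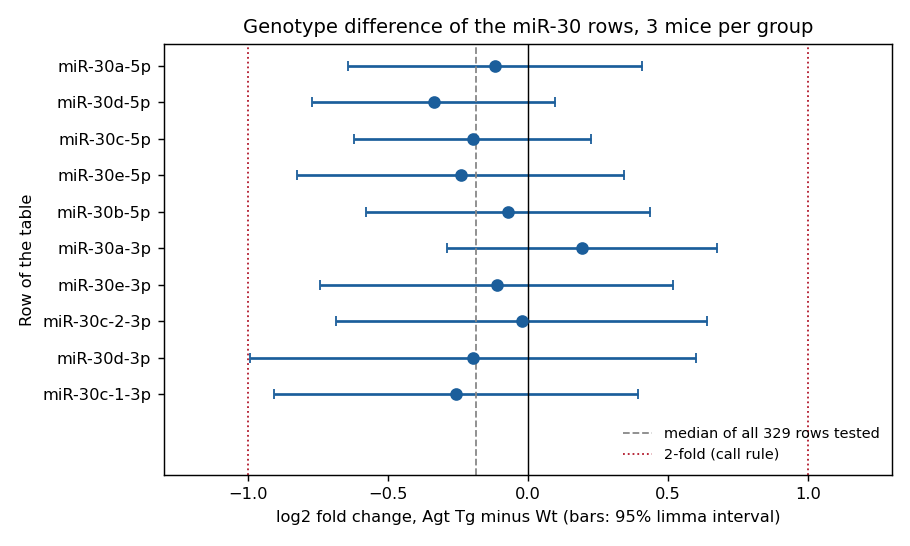
log2 fold change (Agt Tg minus Wt) of the 10 miR-30 rows on the deposited scale, with 95% intervals from limma (3 mice per group); the dashed line is the median of all 329 rows tested, -0.19, and the dotted lines mark a 2-fold change. All 10 intervals hold 0, and their bounds lie between -0.99 and 0.67.

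The guide nearest to a difference was miR-30d-5p. Its mean log2 value was 16.43 ± 0.24 in Wt and 16.09 ± 0.16 in Agt Tg (SD, n = 3). The log2 fold change was -0.34, or -0.15 against the median of all rows (standard error 0.18, 95% interval -0.77 to 0.10, limma adjusted p = 0.541). Without Wt replicate 2 the log2 fold change was -0.47, the unadjusted limma p 0.0205 and the adjusted p 0.299. The values of the other guides lay closer to 0. They were -0.24 (standard error 0.25) for miR-30e-5p, -0.20 (0.18) for miR-30c-5p, -0.12 (0.22) for miR-30a-5p and -0.07 (0.21) for miR-30b-5p. Those of miR-30a-5p and miR-30b-5p turned positive under TMM scaling (0.01 and 0.06). Without Wt replicate 2 they were -0.07 for miR-30e-5p, -0.33 for miR-30c-5p, -0.20 for miR-30a-5p and 0.02 for miR-30b-5p, and limma gave none of these an unadjusted p under 0.05.

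Of the 3p rows, miR-30a-3p was the one with a positive value, a log2 fold change of 0.19 (standard error 0.20, 95% interval -0.29 to 0.67, limma adjusted p = 0.694), and without Agt Tg replicate 3 it was 0.03. miR-30c-1-3p stood at -0.26 (standard error 0.28), miR-30d-3p at -0.20 (0.34), miR-30e-3p at -0.11 (0.27) and miR-30c-2-3p at -0.02 (0.28). The sign of the last 2 was positive under TMM scaling (0.01 and 0.10), and without Wt replicate 2 miR-30d-3p (0.08), miR-30e-3p (0.11) and miR-30c-2-3p (0.07) were positive, with miR-30c-1-3p at -0.15. On the deposited scale the intervals of all 10 rows left out a 2-fold change in either direction, the nearest bound being that of miR-30d-3p at -0.99. In bulk tissue, fewer cells that carry a miRNA and less of it per cell cannot be told apart.

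The spread between mice was modest in this family. The SD within groups, pooled over both, ran from 0.18 to 0.41 on the log2 scale, with a median of 0.26, against a median of 0.41 over all 329 rows tested. Of the 10 members, 9 had a mean level above the median of the rows tested. Their spread was not compared with that of rows of like level.

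Shares within the family do not depend on the scaling of libraries. miR-30a-5p made up 37.9% ± 1.80 of the reads on 5p rows in Wt and 40.5% ± 6.65 in Agt Tg, and miR-30d-5p 35.3% ± 1.83 and 32.6% ± 6.57 (SD, n = 3). For miR-30c-5p the shares were 19.8% ± 1.35 and 19.8% ± 0.857, for miR-30e-5p 3.99% ± 1.34 and 3.79% ± 0.658, and for miR-30b-5p 3.07% ± 0.736 and 3.319% ± 0.354. No share differed between genotypes beyond its spread (exact two-sided permutation test, smallest p = 0.6, adjusted p = 0.9 for each of the 5, where 3 mice against 3 cannot go below 0.1). Without Wt replicate 2 the difference (Agt Tg minus Wt) went from -0.199 to 0.570 points for miR-30e-5p, from 0.0489 to -0.485 for miR-30c-5p and from 0.248 to 0.672 for miR-30b-5p, with exact permutation p values of 0.4, 0.7 and 0.2. The 95% Wilson interval of a single share reached at most 0.257 points to either side.

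The Agt Tg libraries differed among themselves in the balance of the leading guides. miR-30a-5p took 33.7%, 40.8% and 46.9% of the 5p reads in Agt Tg replicates 1, 2 and 3, and 35.8%, 38.5% and 39.2% in Wt replicates 1, 2 and 3. miR-30d-5p took 39.2%, 32.5% and 26.1% in the Agt Tg, and 36.9%, 33.3% and 35.7% in the Wt libraries. The ratio of miR-30a-5p to miR-30d-5p was thus 0.858 in Agt Tg replicate 1 and 1.80 in Agt Tg replicate 3, with the Wt libraries between, at 0.970 to 1.16. miR-30c-5p held between 18.7% and 21.3% in all 6 libraries, the steadiest share of the 3 leading guides.

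**Figure D3:**
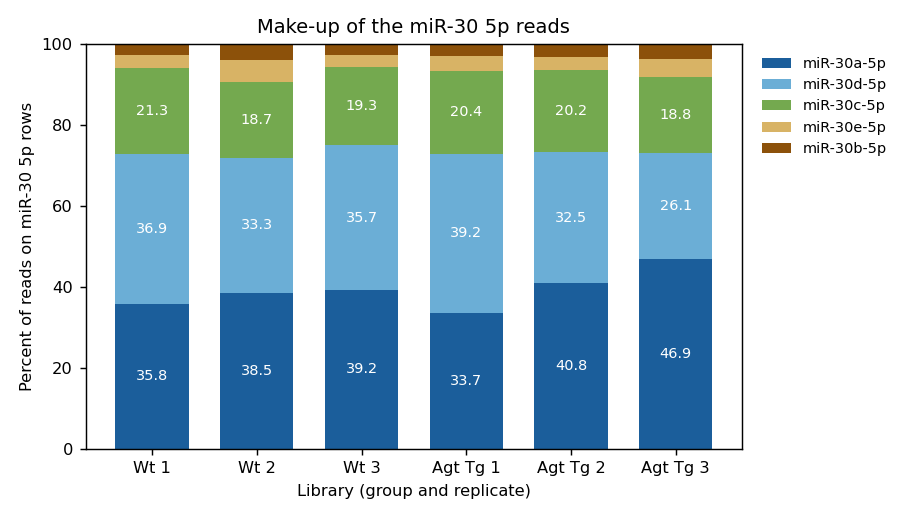
Percent of the reads on miR-30 5p rows taken by each guide, stacked to 100, with 1 bar per library and shares over 8% printed. The miR-30a-5p share runs from 33.7% to 46.9% and the miR-30d-5p share from 26.1% to 39.2%, both with their extremes in Agt Tg replicates 1 and 3.

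The 5p row had more reads than the 3p row in every hairpin, by very different factors. For miR-30e the ratio of 5p to 3p reads was 3.80 to 5.18, for miR-30a 10.5 to 16.3, for miR-30c, with both 3p rows summed, 24.0 to 44.2, and for miR-30d 173 to 427. For miR-30b, whose 3p row was at the floor, the ratio as counted was at least 582 to 871. No mouse sequence was matched to that human-named row, so whether it caught the mouse 3p strand was not tested. Among the 60 hairpins with both arms above the floor in all libraries, the median size of the arm ratio was 5.35 on the log2 scale. miR-30e (2.22) and miR-30a (3.69) were below it, at ranks 45 and 39 from the most unequal, and miR-30d (8.20) was at rank 10. The 2 miR-30c hairpins could be told apart by their 3p strands, and miR-30c-2-3p had 7.72 to 16.0 times the reads of miR-30c-1-3p. This does not give the part of each hairpin in miR-30c-5p, since arm ratios differed widely between hairpins.

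The miR-30a ratio was the 1 measure, among the levels, shares and arm ratios of the family, whose groups did not overlap, and it did so narrowly. It was 14.4, 12.6 and 16.3 in Wt replicates 1, 2 and 3, and 10.5, 12.5 and 11.8 in Agt Tg replicates 1, 2 and 3. The Wt replicate 2 and Agt Tg replicate 2 values nearly met. On the log2 scale the means were 3.84 ± 0.18 and 3.53 ± 0.13 (SD, n = 3), a difference of -0.31 (exact two-sided permutation test, p = 0.1, the smallest possible, adjusted p = 0.4 over 4 hairpins). Among all 60 hairpins the groups did not overlap in 10%. The differences of the other ratios were -0.16 for miR-30c, -0.14 for miR-30d and -0.13 for miR-30e, with overlapping groups (exact permutation p of 0.7, 0.8 and 0.7, adjusted p = 0.8 for each). Without Wt replicate 2 they were -0.38 for miR-30c, -0.56 for miR-30d and -0.19 for miR-30e, against -0.40 for miR-30a. The exact permutation p values were then 0.3, 0.2, 0.4 and 0.1, where 3 mice against 2 cannot go below 0.1. The order of the hairpins thus changed, and it also changed with other libraries left out. The miR-30d difference was 0.04 without Wt replicate 1, 0.09 without Wt replicate 3 and 0.06 without Agt Tg replicate 3.

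**Figure D4:**
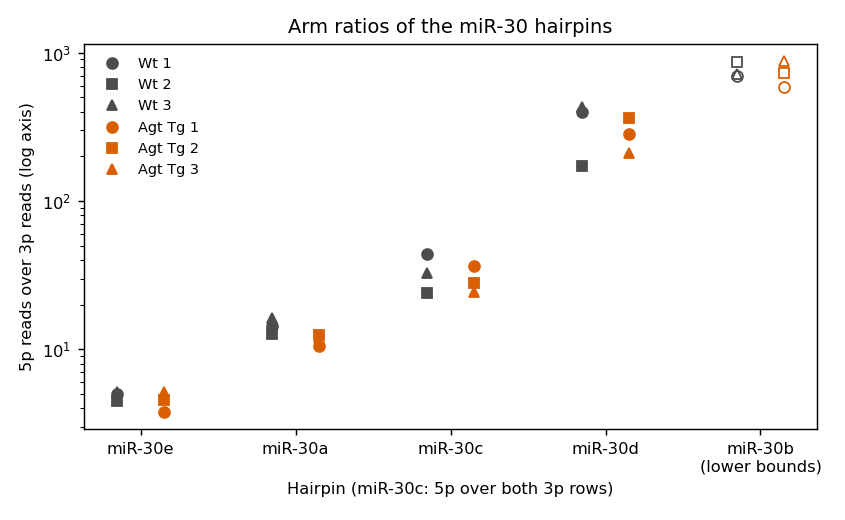
Reads on the 5p row divided by reads on the 3p row (log axis) for each miR-30 hairpin, with 1 point per library. Open symbols for miR-30b are lower bounds for reads as counted, since its human-named 3p row was at the floor. The ratios rise from 3.80 to 5.18 for miR-30e to at least 582 for miR-30b, and the Wt and Agt Tg points of miR-30a touch but do not overlap.

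The rows did not move as one across the mice. Each row's profile was its log2 value minus its own mean over the 6 libraries, and likeness was measured as the root mean square difference between profiles, which over the 45 pairs of rows had a median of 0.30. Rows of the Nfyc intron were alike, but so were some rows of different loci. miR-30e-5p and miR-30e-3p differed by 0.16, miR-30e-3p and miR-30c-1-3p by 0.16 and miR-30e-5p and miR-30c-1-3p by 0.21, and all 3 were highest in Wt replicate 2, at 0.45, 0.51 and 0.34 above their means, and lowest in Agt Tg replicate 2. The 3 rows named for the chromosome 1 locus alone were lowest in Agt Tg replicate 1 and highest in Agt Tg replicate 3, and so was miR-30b-5p from chromosome 15. miR-30a-5p differed from miR-30a-3p by 0.20 and from miR-30c-2-3p by 0.19, and from miR-30b-5p, of another locus, also by 0.19. Across loci, miR-30b-5p differed from miR-30c-2-3p by 0.12 and from miR-30a-3p by 0.16, and miR-30d-5p from miR-30c-5p by 0.16.

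The arms of miR-30d were the least alike of all 45 pairs, at 0.48. miR-30d-5p was highest in Wt replicate 1 (0.33 above its mean) and lowest in Agt Tg replicate 3 (0.34 below), whereas miR-30d-3p was highest in Wt replicate 2 (0.66 above) and lowest in Agt Tg replicate 2 (0.45 below). The row most like miR-30d-3p was miR-30e-3p, at 0.08 the smallest difference of the 45, although the hairpins are on different chromosomes. miR-30d-3p had 125 to 330 reads per library, against 976 to 2153 for miR-30e-3p. No mouse sequence was matched to the miR-30d-3p row, and sharing of reads between these 2 rows was not tested. Wt replicate 2 was the highest library for 4 of the 10 rows, miR-30e-5p, miR-30e-3p, miR-30d-3p and miR-30c-1-3p. Agt Tg replicate 3 was likewise the highest for 4 of the 10. The epithelial miRNAs were also high in Wt replicate 2, but this match rests on that library alone. Their part in these values was not tested. These likenesses are descriptions over 6 libraries that share their depth and scaling.

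**Figure D5:**
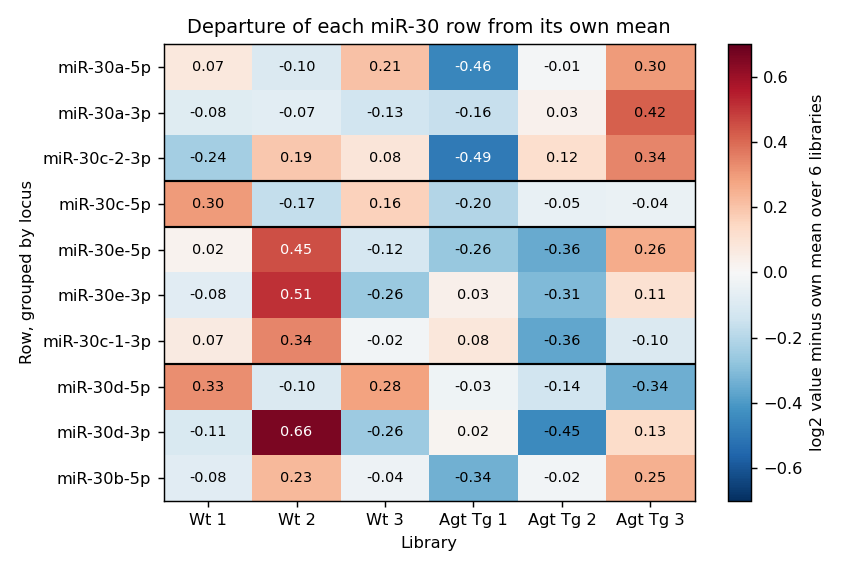
log2 value of each miR-30 row minus its own mean over the 6 libraries, printed in each cell, with rows grouped by locus (black lines): chromosome 1, miR-30c-5p from both loci, chromosome 4 and chromosome 15. The rows of the chromosome 4 locus are highest in Wt replicate 2, at 0.34 to 0.51, and the arms of miR-30d differ in sign in 5 of 6 libraries.

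Outside the family, the rows whose profiles were closest to that of the summed 5p reads were miR-203a (root mean square difference 0.07), miR-93-5p (0.09) and miR-148b-3p (0.10), out of 260 rows above the floor in all libraries, for which the median was 0.41. Other miRNAs that act on fat cell formation were given by a list of 20. Of these, 18 were above the floor in all libraries, and miR-155-5p and miR-193b-3p were at the floor throughout. Of the 18, 8 had a negative and 10 a positive log2 fold change, with a median of 0.03. Over all 329 rows tested 67.5% were negative and the median was -0.19. At an unadjusted limma p under 0.05 there were 0 of the 18, against 9.12% of all rows. At an adjusted p under 0.05 there were 0 of the 18, against 0% of all rows. The most abundant were miR-143-3p, which promotes adipocyte differentiation, at 36918 to 56877 RPM (log2 fold change 0.22, standard error 0.18), and miR-26a-5p, at 21459 to 27628 (0.11, standard error 0.15). Both were above miR-30a-5p in each library.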

How the data were processed

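Small RNA libraries of 3 Wt and 3 Agt Tg mice were used, grouped by the sample titles. The authors checked reads with FastQC, mapped them to miRBase precursors and kept those on mature miRNAs; the methods also name GRCm38.p4, and no source used here states the miRBase release. The authors deposited log2 values, which are reads scaled to 10000000 per library, and anything below 10 was set to 10. Linear values above this floor came out whole within 0.02 reads for 1924 of 1924, which gave the totals and reads.

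The 329 rows that exceeded the floor in 3 or more libraries were fitted with limma 3.58.1 in R 4.3.3 (variance trend, genotype as the only term) on the deposited log2 values, with Benjamini-Hochberg adjustment over all 329. Every described member, the 3 rows most like the family's summed 5p reads, and of the adipogenesis list the 2 most abundant rows and any that passed, were named. The members and lists were chosen with earlier results of these data known. Rows named in lists were matched by exact name, or without the arm where the table gives none. TMM trimmed 30% of log ratios and 5% of levels, and limma-voom was given the floor's own reads where a value was at the floor. Reads without molecular identifiers are not independent molecules. No 2 libraries agreed within sampling noise. The fit was tested on simulated data. Seeds were searched in GENCODE M21 with Python 3.11.15. Alternatives were the scale and pseudocount, scaling, filters, variance model, a replicate block and each library left out.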

Additional observations from a re-analysis of the deposited data

How the results depend on the processing

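No miR-30 row reached the unadjusted p of at most 0.05 and a log2 fold change of 1 or more in size under any of the 17 alternatives, and the median over the 5p rows stayed within the spread between libraries, from -0.25 to -0.13 with each library left out. Leaving out a library gave 0 to 1 miR-30 rows at an unadjusted p under 0.05 (miR-30d-5p without Wt replicate 2). Over all rows, 16 of 329 had an unadjusted p of at most 0.05 and a log2 fold change of 1 or more in size. This count was 7 of 329 on log2(RPM + 1), 9 of 270 for rows above the floor in all libraries and 3 of 209 with a mean of at least 10 RPM. It was 12 to 35 with each library left out, the most without Agt Tg replicate 1. At an unadjusted p under 0.05, whatever the fold change, it was 30 of 329. There it was 29 on log2(RPM + 1), 20 of 270 and 15 of 209 with these filters, and 16 to 53 with each library left out. The causes were not tested.

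Signs turned under TMM scaling and under limma-voom with TMM for miR-30a-5p (0.00834 and 0.0033), miR-30b-5p (0.0560 and 0.0549), miR-30e-3p (0.0142 and 0.0191) and miR-30c-2-3p (0.10 and 0.10), and for miR-30c-2-3p with scaling to listed reads (0.0347). With each library left out, log2 fold changes ran from -0.30 to 0.0813 for miR-30a-5p, -0.21 to 0.0793 for miR-30b-5p, -0.27 to 0.11 for miR-30e-3p, -0.20 to 0.22 for miR-30c-2-3p and -0.37 to 0.0837 for miR-30d-3p. As shares of all library reads, differences between genotypes were negative for miR-30a-5p (-0.0581 points), miR-30c-5p (-0.0670) and miR-30b-5p (-0.00297), where shares within the family were positive. With each library left out, the within-family differences ran from -0.602 to 6.04 points for miR-30a-5p, -6.04 to 0.529 for miR-30d-5p, -0.485 to 0.809 for miR-30c-5p and -0.662 to 0.570 for miR-30e-5p. The log2 arm ratio differences ran from -0.56 to 0.0941 for miR-30d, -0.38 to 0.0560 for miR-30c and -0.40 to -0.22 for miR-30a.

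Same-numbered Wt and Agt Tg libraries did not deviate together for numbers 2 and 3 (correlations over rows of -0.184 and -0.209). The libraries numbered 1 did so weakly (0.219), and each was the other's best match. The numbers are not treated as pairs. With the replicate number as a block, the median over the 5p rows was -0.20. Over all rows, 17 then had an unadjusted p of at most 0.05 and a log2 fold change of 1 or more in size. At an unadjusted p under 0.05, whatever the fold change, there were 26. Of the miR-30 rows, 0 passed either of these thresholds. The comparison of the order with each library left out was chosen after seeing the data.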
